A study of Mus musculus with 13 samples.

Results

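The mouse Zfp genes, most of which encode proteins with C2H2 zinc fingers, were described by their RNA levels in mouse liver. The family was taken as the protein-coding rows of the liver table whose symbol was Zfp followed by a number and at most 1 letter. Zfp36 was left out, because its protein (tristetraprolin) has zinc fingers of another type and acts on mRNA decay. This rule found 291 genes among 11396 protein-coding rows and 11779 rows in all, so that Zfp genes made up 2.55% of the protein-coding rows. The other 11105 protein-coding rows served as the background.

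The livers came from Balb/c mice that had received antisense oligonucleotides (ASOs) coupled to GalNAc, a sugar that hepatocytes take up through a surface receptor. Livers of the Liver Luc ASO group (3 mice) had the control ASO against firefly luciferase, and those of the Liver LL35 ASO group (3 mice) had, by the labels, a mix of 5 ASOs against the long non-coding RNA LL35, so that every animal carried a GalNAc-conjugated ASO. The list of injected conjugates in the sources shows fewer, and this difference could not be settled. Tissue was taken on day 5 after injection. The dose was 150 mg/kg for each ASO by the labels, whereas the methods give that figure for the whole mix, and age and sex were not given in the sources used here. The deposited table gave each gene 1 mean normalized count over the compared libraries of both groups, printed here as the authors' mean, without SD or n. Values of single libraries and the 7 libraries of AML12 cells, a line of normal mouse hepatocytes, were not analysed here, and the Luc ASO and LL35 ASO livers were not compared.

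The C2H2 finger is a short fold in which a pair of cysteines and a pair of histidines hold a zinc ion, and fingers set in a row read DNA bases along the double helix. Many of these proteins also carry a KRAB box near their start, which recruits Trim28 (KAP1) and through it Setdb1, a histone H3K9 methyltransferase, so that the bound DNA is packed into heterochromatin. KRAB zinc finger proteins are best known for silencing transposable elements and for guarding imprinted regions, and their genes multiplied in clusters during mammalian evolution. Family members without the box include activators, RNA-binding proteins and ubiquitin ligases.

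The sequences below show what the family's proteins share and what separates the 2 largest classes. All were read from GENCODE M21 transcripts (GRCm38), 5′ to 3′ on the coding strand, and their positions refer to that reference, since the build behind the deposited table was not given in the sources used here. First come coding bases of single fingers, with the codons of the 4 zinc-binding residues in capitals. They are given for Zfp871, the KRAB-like member with the highest mean normalized count, its neighbour Zfp811, 2 members without the box (Zfp148 and Zfp598), the member with the highest mean normalized count (Zfp106), and Zfp970, which shares much sequence with other genes.
Zfp871 finger 2: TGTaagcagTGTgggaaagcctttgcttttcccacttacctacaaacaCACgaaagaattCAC
Zfp811 finger 2: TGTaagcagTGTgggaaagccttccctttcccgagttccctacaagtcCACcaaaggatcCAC
Zfp148 finger 2: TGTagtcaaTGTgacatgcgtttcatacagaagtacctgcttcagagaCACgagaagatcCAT
Zfp598 finger 1: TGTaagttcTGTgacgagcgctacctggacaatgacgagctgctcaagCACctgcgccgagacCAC
Zfp106 finger 1: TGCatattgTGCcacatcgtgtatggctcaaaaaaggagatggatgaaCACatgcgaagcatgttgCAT
Zfp970 finger 11: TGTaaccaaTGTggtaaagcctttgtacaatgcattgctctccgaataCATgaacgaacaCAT
Zfp970 finger 14: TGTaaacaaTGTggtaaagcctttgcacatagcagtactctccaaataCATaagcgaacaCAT

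The Zfp871 stretch lies at chr17:32775471-32775533 and that of Zfp811 at chr17:32798336-32798398, each on the minus strand in exon 4 of 4. The Zfp148 finger lies at chr16:33468117-33468179 in exon 7 of 9 and the Zfp598 finger at chr17:24677509-24677574 in exon 4 of 12, both on the plus strand. The Zfp106 finger spans an exon border between exon 2 and exon 3 of 22 on the minus strand (chr2:120545872-120555266). The fingers of Zfp970 lie at chr2:177475871-177475933 and chr2:177476123-177476185 on the plus strand in exon 4 of 4. Finger 2 of Zfp871 and finger 2 of Zfp811 had 51 of 63 bases in common (81.0%). Finger 2 of Zfp148 had 29 of 63 in common with that of Zfp871. Fingers 11 and 14 of Zfp970, from 1 protein, had 54 of 63 bases in common, and finger 11 occurred with exactly the same bases in 4 other Zfp genes, Zfp966, Zfp967, Zfp968 and Zfp969.

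The next lines give 60 coding bases from the KRAB-like stretch of 3 members, with the codons in capitals where the residue matched 1 of the 9 conserved positions that were scored.
Zfp871: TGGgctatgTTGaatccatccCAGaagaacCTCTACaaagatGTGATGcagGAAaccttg
Zfp445: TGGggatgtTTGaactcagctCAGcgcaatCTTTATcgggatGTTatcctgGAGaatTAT
Zfp568: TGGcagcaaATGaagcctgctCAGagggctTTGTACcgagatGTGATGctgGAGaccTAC

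These stretches lie at chr17:32777420-32777479 in exon 2 of 4 for Zfp871, at chr9:122856718-122856777 in exon 5 of 7 for Zfp445 and at chr7:29997798-29997857 in exon 5 of 10 for Zfp568. Zfp568 matched 9 of the 9 positions, and Zfp871 and Zfp445 matched 8 each. Between pairs of these genes, 34 to 37 of the 60 bases were the same.

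The reference proteins were searched for fingers. Of the 290 members with a reference protein, 285 held at least 1 C2H2 finger, with a median of 10.5 fingers and a highest number of 36, whereas 2.15% of the other protein-coding rows held a finger. The 5 members in which the pattern found no finger were Zfp330, Zfp503, Zfp703, Zfp750 and Zfp839. Zfp503 and Zfp703 are related transcriptional repressors with an atypical finger. The proteins held 3146 fingers together, and 233 members had at least 1 copy of the conserved linker that joins neighbouring fingers. Zfp939 could not be matched to a reference gene and has no features here. A KRAB-like stretch, defined as at least 8 of the 9 positions, was found in 155 members (53.3%), and 11 had a SCAN-like stretch, the box through which such proteins pair with each other. Zfp110, Zfp445 and Zfp446 had both.

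Members with the KRAB-like stretch had more fingers and more uniform ones. Their median was 12 fingers a protein against 7 in members without it, and fingers took up a median of 45.6% of their residues against 26.5%. Among proteins with at least 4 fingers of 63 bases, the median share of bases in common between the fingers of a protein was 65.1% in 151 KRAB-like members (range 47.6% to 85.7%) and 57.1% in 82 other members (34.9% to 77.8%).

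The markers were those of whole liver. The 7 hepatocyte markers fixed for this check were all listed, with mean normalized counts from 10070 for the lowest to 1217470 for Alb (albumin), and their summed count was 1453230. The 5 Kupffer cell and macrophage markers summed to 3825, the 4 sinusoidal endothelial markers to 3792 and the 4 stellate cell markers to 3688, and all of these were listed. Of the markers of bile duct cells 1 of 4 was listed, of T and B lymphocytes 1 of 4, of neutrophils 2 of 3 and of erythroid cells 2 of 3. The cell type in which a Zfp gene was transcribed was not tested, and in bulk tissue fewer cells of a type and less RNA per cell cannot be told apart.

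Zfp genes were listed at low levels. Divided by exon length, the median of 290 Zfp genes was 21.1 mean normalized counts per kb of exon (quartiles 11.9 and 37.4), whereas that of 11067 other protein-coding rows was 53.6. The ratio of these medians was 0.393, and 241 Zfp genes (83.1%) lay below the median of the others. Both medians cover listed rows only, and the listed shares differed. They were 74.1% of reference Zfp genes and 51.4% of other reference protein-coding genes. How the groups compare with genes without a row included was not tested. Per kb of exon, 148 Zfp genes (51.0%) lay below the others' lower quartile of 21.6 and 7 (2.41%) above their upper quartile of 131. Before division by length, the median mean normalized count was 96.5 for Zfp genes and 250.8 for the others, a ratio of 0.385. At this depth 74 members (25.4%) had a mean normalized count under 50, compared with 1597 (14.4%) of the other protein-coding rows. Means this low rest on few reads. The whole family summed to 54332 mean normalized counts, 0.494% of the sum over all protein-coding rows. Genes are not replicates of each other, so these differences are given as descriptions without a test.

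**Figure D1:**
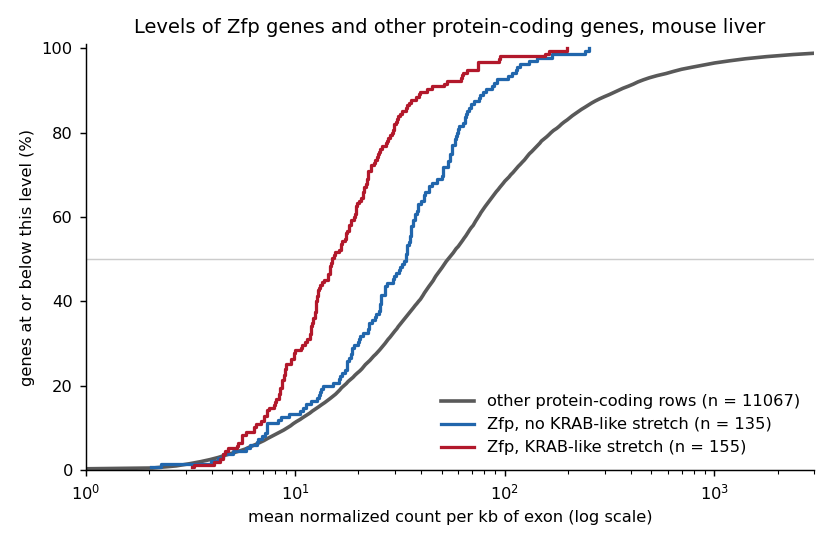
Cumulative share of genes (vertical axis, percent) at or below each level (horizontal axis, mean normalized count per kb of exon, log scale) for 135 Zfp genes without a KRAB-like stretch, 155 with one and 11067 other protein-coding rows. The KRAB-like curve crosses 50% at 15.1, the curve of the other Zfp genes at 33.7 and that of other protein-coding rows at 53.6; other protein-coding rows go on beyond the right end of the horizontal axis.

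A few members carried much of the family's RNA. The 10 members with the highest counts held 24.3% of the family's summed count, and the lower-ranked members from the middle of the list down held 13.8%. Zfp106, an RNA-binding protein that motor neurons and muscle need, had the highest mean normalized count, 2506, which is 240.3 per kb of exon. Zfp871, a KRAB-like member with 15 fingers, followed with 2208, or 198.6 per kb of exon. The next were Zfp445 (1203), Zfp91 (1137), Zfp207 (1118), Zfp148 (1076), Zfp652 (1064), Zfp638 (1030), Zfp598 (980.3) and Zfp292 (867.1), all in mean normalized counts. Of these 10, only Zfp871 and Zfp445 had a KRAB-like stretch, and 9 of the 10 stood apart from any other Zfp gene in the reference gene order, with Zfp871 the exception.

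Length changed the order of these genes. Per kb of exon, Zfp598, a ubiquitin ligase that marks collided ribosomes, came first with 251.7, ahead of Zfp106. Zfp207, a kinetochore protein that loads Bub3, had 167.9 per kb of exon and Zfp445 had 162.4. Zfp652, a transcriptional repressor, had 68.9 per kb of exon and Zfp638 had 65.1, with exons that cover 15444 and 15810 bases. Per kb of coding sequence, the highest 5 were Zfp706 (3097), Zfp871 (1197), Zfp740 (861.5), Zfp207 (752.8) and Zfp91 (662.6). The Zfp706 protein has 76 residues, and on the exon scale Zfp706 ranked 7 with 141.8 per kb.

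The lowest listed members lay near the lowest mean normalized count of the whole table, 15.6. They were Zfp791, Zfp521, Zfp13, Zfp14 and Zfp78, with mean normalized counts from 15.8 to 16.4. Zfp521, a regulator of blood stem cells and of neural and bone progenitors, had 2.28 per kb of exon. Zfp462, which restrains early developmental genes in stem cells, was the lowest on that scale with 2.05 per kb and a mean normalized count of 21.9. The highest member exceeded the lowest 159-fold in mean normalized count and 123-fold per kb of exon.

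Members with a KRAB-like stretch had lower levels than those without. Their median was 15.1 mean normalized counts per kb of exon (quartiles 9.31 and 25.0, n = 155), against 33.7 (quartiles 17.7 and 55.4, n = 135) in members without it, a ratio of 0.447. In mean normalized counts the medians were 69.7 and 165.7. Of the KRAB-like members 143 (92.3%) lay below the other protein-coding rows' median per kb of exon, compared with 98 (72.6%) of the members without the stretch. The ranges overlapped almost fully, from 3.24 to 198.6 and from 2.05 to 251.7 per kb of exon.

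The difference in medians was present within the subsets by finger number, neighbours and shared sequence given here. It was not seen in the 11 members with a SCAN-like stretch, which are described further below. With 1 to 10 fingers, the medians per kb of exon were 17.4 in 50 KRAB-like members and 35.6 in 90 members without the stretch. With 11 or more fingers, they were 14.7 in 105 KRAB-like members and 26.1 in 40 without. Among members with no Zfp gene next to them, they were 18.6 (n = 40) and 33.4 (n = 100), and among members beside another Zfp gene they were 13.3 (n = 114) and 34.0 (n = 35). Among members that shared little sequence with other genes, they were 15.2 (n = 118) and 34.1 (n = 127). A set of 19 other protein-coding rows that had a KRAB-like stretch and a finger under another kind of symbol had a median of 14.3 per kb of exon, with 19 of 19 below the other rows' median.

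**Figure D2:**
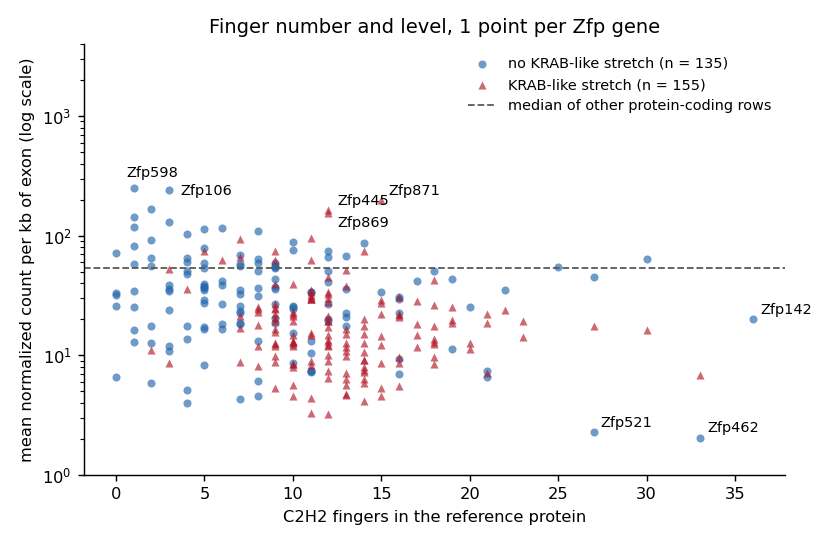
Level of each Zfp gene (vertical axis, mean normalized count per kb of exon, log scale) against the number of C2H2 fingers in its reference protein (horizontal axis), with triangles for 155 members with a KRAB-like stretch and circles for 135 without. The highest members Zfp598 and Zfp106 have 1 and 3 fingers, the lowest, Zfp462, has 33, and the dashed line marks the median of other protein-coding rows, 53.6.

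Finger number went with level only loosely. The 52 members with 1 to 5 fingers had a median of 36.9 per kb of exon, the 88 with 6 to 10 fingers 22.7, the 93 with 11 to 15 fingers 15.4 and the 52 with 16 or more 18.3. Across 290 members Spearman's rho between finger number and level per kb of exon was -0.31. Within the KRAB-like members it was -0.16 (n = 155) and within the others -0.17 (n = 135). All these genes share the same libraries, so the values are descriptions. The 5 proteins with the most fingers were Zfp142 (36 fingers, 19.9 per kb of exon), Zfp462 (33 fingers), Zfp619 (33 fingers, 6.84 per kb), Zfp236 (30 fingers, 64.3 per kb) and Zfp729b (30 fingers, 16.2 per kb). Of these, Zfp236 alone lay above the median of the other protein-coding rows.

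The 11 members with a SCAN-like stretch had a median of 47.4 per kb of exon, and 4 of them lay above the other protein-coding rows' median. The 3 that also had a KRAB-like stretch had a median of 74.6 and ranged from 8.66 to 162.4. Of all 11, Zfp445 was the highest and Zfp202 the lowest, with a mean normalized count of 17.6.

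Among silencers with known targets, Zfp445, which holds methylation at imprinted regions together with Zfp57, stood at 162.4 per kb of exon, and Zfp57 was not among the rows analysed here. Zfp568, which represses a placental transcript of Igf2, had 62.7 per kb. Zfp809, which silences murine leukemia virus and related endogenous retroviruses, had 93.5 per kb with a mean normalized count of 276.8. Outside that group, Zfp266, named only as the third highest KRAB-like member by count (522.1), had 74.2 per kb. Also outside it, Zfp110, known as a partner of the p75 neurotrophin receptor, had 74.6 per kb.

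A list of partners of KRAB proteins and of heterochromatin genes had a higher median level than the KRAB-like members. Of 29 genes in this list, 28 had a row, and Uhrf1 was not among the rows analysed here. Their median was 69.5 per kb of exon, 18 of the 28 lay above the median of other protein-coding rows, and 27 above that of Zfp genes. The list was chosen by name, so its median stands for these genes only. Trim28, the shared corepressor, had 217.4 per kb and Setdb1, the methyltransferase it recruits, had 60.7. Chd4 and Chd3, the remodelling subunits of the NuRD complex, had 252.5 and 208.3 per kb. Of the HP1 proteins that bind methylated H3K9, Cbx5 had 78.9, Cbx1 had 76.1 and Cbx3 had 13.5, the lowest of the list. For the HUSH complex, Tasor had 66.8, Mphosph8 had 64.2 and Pphln1 had 58.1 per kb of exon.

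Of 34 Zfp genes with a known role, 31 were listed. Their median was 59.1 per kb of exon, and 18 of the 31 lay above the median of other protein-coding rows. They were picked for being well studied, so their median does not stand for the family. The 3 without a row were Zfp57, Zfp42 (Rex1), a marker of embryonic stem cells, and Zfp423, a marker of fat cell progenitors.

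Among regulators of promoters, Zfp281, which acts in pluripotent cells, had 129.9 per kb of exon, and Zfp148, which binds GC-rich promoters, had 103.7. Zfp143, an activator bound at many promoters and loop anchors, had 32.3, and Zfp410, whose main known target is Chd4, had 29.2. Zfp335 had 67.1, Zfp384 had 59.1 and Zfp217, an oncogene product in breast cancer, had 36.3 per kb. Zfp260, described in heart muscle, had 50.2 per kb, just under the median of other protein-coding rows.

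Among members of chromatin complexes, Zfp592 had 108.5 per kb of exon and its partner Zfp687 had 26.9. Zfp644, which guides the G9a and GLP methyltransferases, had 55.8, and those enzymes, Ehmt2 and Ehmt1, had 140.8 and 102.0. Outside this class, Zfp292 had 86.8 and Zfp318, which shapes IgD splicing in B cells, had 55.7. In the fat cell regulators, Zfp638 had 65.1 and Zfp516, which promotes brown fat genes, had 24.4 per kb.

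Other members are known for acts on RNA or on proteins. Zfp91, a ubiquitin ligase of the NF-kB pathway, had 113.2 per kb of exon, and Zfp451, a SUMO ligase, had 37.2. Zfp622 and Zfp593, which assist the assembly of the large ribosomal subunit, had 38.6 and 25.0. Zfp326, which links transcript elongation to splicing, had 34.1, and Zfp346, which binds double-stranded RNA, had 17.7. The DNA-binding regulator of epidermal differentiation Zfp750 had 71.4 and the repressor Zfp703 had 33.0 per kb.

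**Figure D3:**
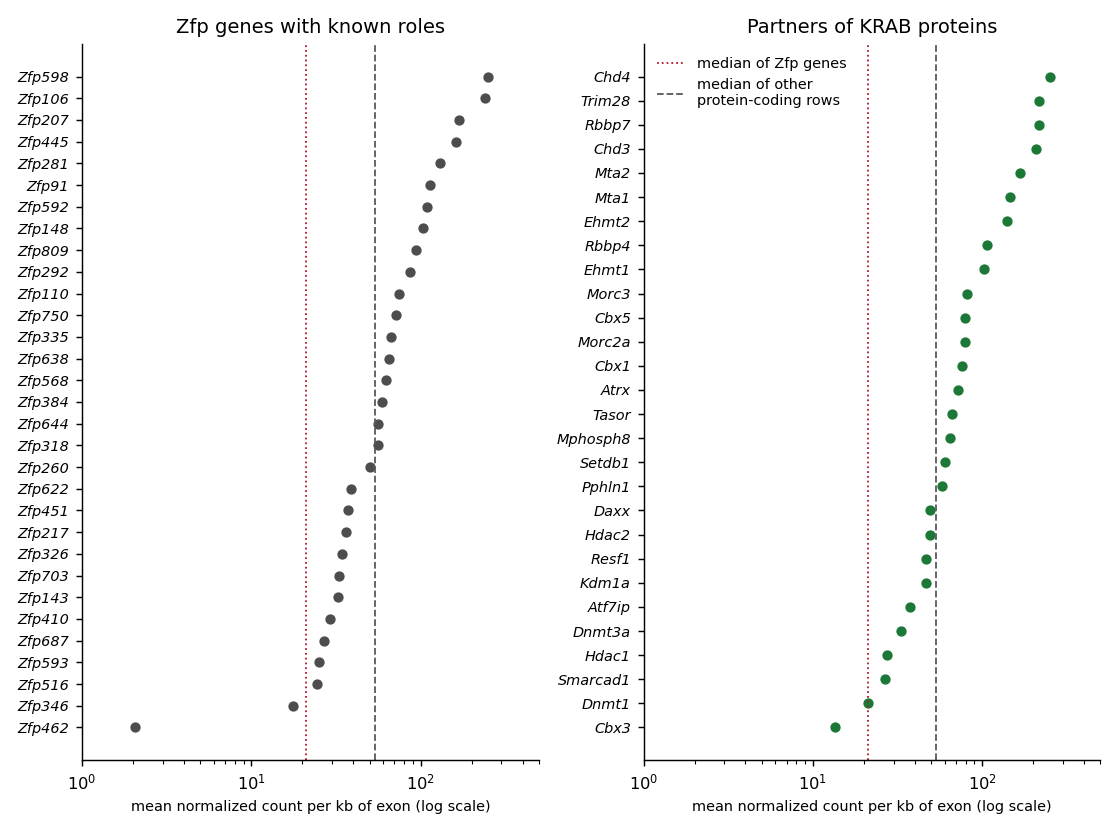
Level (horizontal axis, mean normalized count per kb of exon, log scale) of the 31 listed Zfp genes with a known role (left), 1 point per gene. The right panel shows the 28 listed partners of KRAB proteins and heterochromatin genes in the same way. The dotted line is the median of all Zfp genes (21.1) and the dashed line that of other protein-coding rows (53.6); 18 genes of each list lie to the right of the dashed line.

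Related families named by symbol had higher medians than the Zfp genes. The 35 Zbtb genes, whose proteins join a BTB domain to fingers, had a median of 37.5 per kb of exon, and 23 of them (65.7%) lay below the median of other protein-coding rows. The 16 Zscan and Zkscan genes had a median of 35.7 with 13 below, and the 13 Klf genes, among them metabolic regulators of the liver, had a median of 79.3 with 5 below. All 238 other protein-coding rows with at least 1 C2H2 finger had a median of 37.1 per kb, with 64.3% below. Zfp genes without a KRAB-like stretch had a median of 33.7 with 72.6% below, which is close to these groups except the Klf genes. The KRAB-like Zfp genes had a median of 15.1.

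Most of the reference family had a row in the liver table. Of 390 Zfp genes annotated as protein-coding in GENCODE M21, 289 (74.1%) were listed, compared with 11085 of 21561 other protein-coding genes (51.4%). KRAB-like genes were listed in 154 of 222 cases (69.4%) and those without the stretch in 135 of 168 (80.4%). A gene without a row was not analysed here, which says nothing of whether liver expresses it.

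Listing went with the sequence that a gene shares with other genes. For each gene, the share of 50-base words of its longest coding transcript that also occur in transcripts of another gene was taken as a measure. Of 302 Zfp genes with under 10% of words shared, 244 (80.8%) were listed. Of 57 with 10% to under 50%, 39 (68.4%) were listed, and of 31 with 50% or more, 6 (19.4%). The 6 listed members with at least 50% of words shared were Zfp58, Zfp59, Zfp931, Zfp932, Zfp955a and Zfp970, named here after their values were seen, and their mean normalized counts lay between 28.4 and 162.4. Per kb of exon, the 245 listed members with under 10% shared had a median of 22.4 the 39 members in the middle class a median of 13.7 and the 6 with 50% or more a median of 16.99. Within the KRAB-like members Spearman's rho between shared words and level per kb of exon was 0.0090 (n = 155), and within the others it was -0.051 (n = 135). The reads were counted only where they mapped to 1 place, and how much of this pattern came from reads lost that way was not tested.

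**Figure D4:**
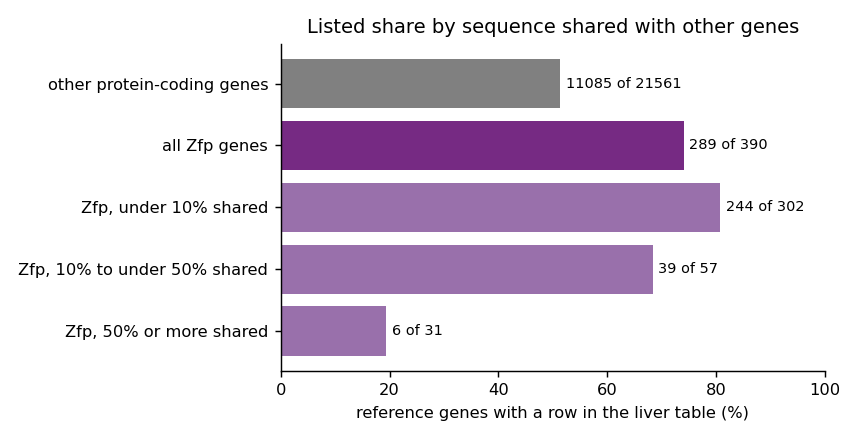
Share of reference genes that had a row in the liver table (horizontal axis, percent), for other protein-coding genes, all Zfp genes and Zfp genes by the share of 50-base words found in another gene's transcripts. The bars fall from 80.8% to 68.4% and 19.4% with rising shared sequence; the numbers beside the bars are listed and reference genes.

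The same held for single fingers. The reference family held 4055 fingers in complete coding sequences, and 99 finger sequences occurred base for base in 2 or more genes. Of the 51 genes with such a finger 24 (47.1%) were listed, compared with 260 of 324 (80.2%) without one. Finger 11 of Zfp970, printed above, is an example: Zfp970 was listed with a mean normalized count of 162.4, whereas Zfp966, Zfp967, Zfp968 and Zfp969, which hold the same 63 bases, had no row. In these 4 genes 89.6% to 100% of the words were shared with other genes.

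Neighbouring Zfp genes were common. In the reference gene order, 202 of the 390 genes had another Zfp gene directly beside them, in 58 runs of up to 11 genes, and 149 listed members lay in such runs. Their median was 17.3 per kb of exon, against 26.4 in the 140 listed members with no Zfp neighbour. These groups differed in make-up, with 114 KRAB-like members in the first and 40 in the second. Among members without the stretch the medians were 34.0 and 33.4, and among KRAB-like members they were 13.3 and 18.6. Zfp267, which the reference lists under another symbol, was not placed in this order. Of all adjacent pairs in which both genes were listed (n = 92), 81.5% agreed in having or lacking the KRAB-like stretch, compared with 50.1% of all 41905 pairs of members. The median difference in level between adjacent members was 1.94-fold per kb of exon and between all pairs 2.35-fold. Where both genes were KRAB-like, these values were 1.88-fold (65 adjacent pairs) and 2.03-fold (11935 pairs).

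Levels within a run could still lie far apart. In the run from Zfp871 to Zfp870, Zfp871 had 198.6 per kb of exon, Zfp811 directly beside it had 5.60, Zfp799 had 22.5 and Zfp870 had 12.4. Zfp871 and Zfp811 thus differed 35.4-fold, although the fingers printed above have 81.0% of bases in common, and under 1% of the words of either gene were shared with another gene. In the run from Zfp868 to Zfp963, Zfp869 had 155.9 and Zfp964 had 5.29 per kb, a 29.5-fold difference. The reference exons of Zfp869 cover 1590 bases, of which 1587 are coding, whereas the median Zfp gene had 4851.5 exon bases. Its value per kb of exon is therefore hard to set beside those of its neighbours. The mean normalized count of Zfp869 was 247.9, and it ranked 6 per kb of exon but 42 per kb of coding sequence. In the longest run, from Zfp84 to Zfp82, 9 of 11 genes were listed, and they ranged from 3.24 for Zfp30 to 62.7 for Zfp568.

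**Figure D5:**
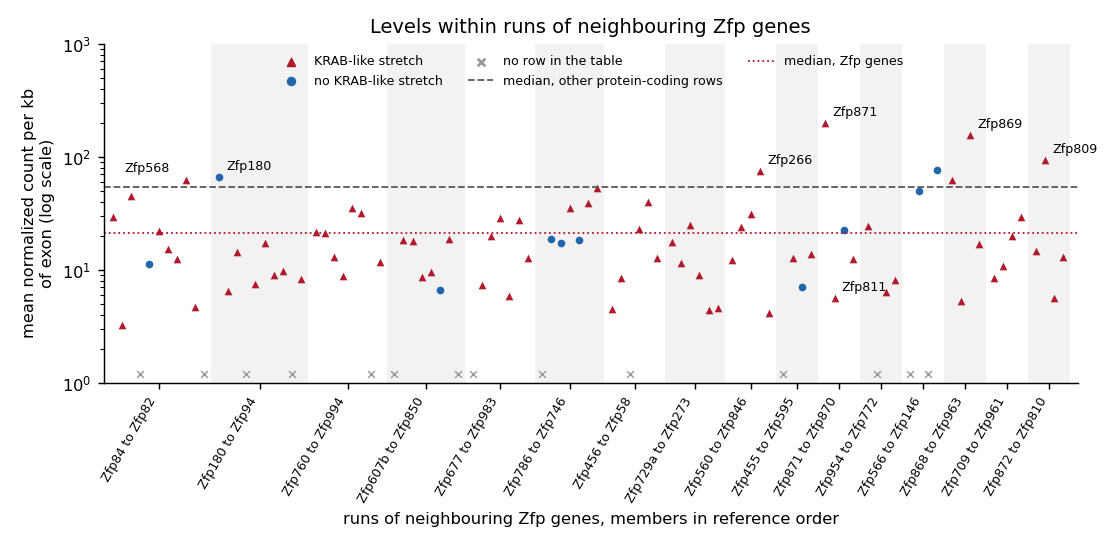
Levels (vertical axis, mean normalized count per kb of exon, log scale) of Zfp genes in the 16 runs of at least 4 neighbours in which 2 or more members were listed, in reference order along the horizontal axis. Triangles are KRAB-like members and circles are members without the stretch, crosses at the foot mark genes without a row and no level, and most points lie under the dashed median of other protein-coding rows (53.6) with Zfp871 at 198.6.

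In 3 runs, all on chromosome 4 of GRCm38, 1 of 16 genes was listed. These 16 genes all had a KRAB-like stretch, and the median share of words in another gene's transcripts was 71.5%. The listed gene, Zfp933, had 1.07% of words shared, the lowest share of the 16, and a mean normalized count of 119.0. In the other 16 runs of at least 4 genes, 82 of 96 genes were listed. The 3 runs were picked for having at most 1 listed gene, so this contrast follows from the choice. Over all runs of at least 4 genes, 83 of 112 genes (74.1%) were listed. Of the genes with no Zfp neighbour, 140 of 188 (74.5%) were.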

How the data were processed

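Total RNA of 6 livers was depleted of rRNA and made into strand-specific libraries (NEBNext Ultra II Directional) that were sequenced on a HiSeq4000. The authors aligned reads with STAR 2.5.3a, counted uniquely mapped reads per gene on an Ensembl annotation, and divided counts by DESeq2 size factors (RLE). The deposited signal is the mean of these normalized counts over the compared libraries, pooled over both groups and not divided by length. The other 5 numeric columns hold the authors' comparison (log2 fold change, its standard error, Wald statistic, p-value and adjusted p-value) and were not used. Depth per library was not given in the sources used here.

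Rows were matched by Ensembl ID, or failing that by symbol, to GENCODE M21, which gave 290 of 291 members and 11067 of 11105 other protein-coding rows lengths and longest coding sequences. The reference family was taken by symbol, so that Zfp267, which M21 names otherwise, is not in it, and 289 members have a place in the neighbour order. Exon length is the union of a gene's exons. A finger was a pair of cysteines 2 or 4 residues apart, 12 further residues, and a pair of histidines 3 to 5 residues apart. The looser KRAB pattern used only the end of the box. The members and gene lists were chosen with earlier results of these data known. Named genes were the 10 highest and 5 lowest members by count, the 5 highest per kb of coding sequence, the 5 with most fingers, the 3 highest KRAB-like members and 34 members of known role. The neighbour runs and shared-sequence examples were named after their values were seen. Patterns, words and medians were tested on simulated data. Python 3.11.15, numpy 2.4.6, pandas 2.3.3 and matplotlib 3.10.9 were used. No test was run, since genes are not replicates.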

Additional observations from a re-analysis of the deposited data

How the results depend on the processing

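Across 20 alternative settings of 7 results, 19 moved the value by less than 1.5 times or, for shares, kept it within its 95% interval, and 0 turned a direction. The 1 setting that moved was for the share of Zfp genes below the median of other protein-coding genes. This share was 82.1% on mean normalized counts and 87.6% per kb of coding length. The ratio of the family's median to that of other protein-coding genes ranged from 0.315 per kb of coding length to 0.415 after rows with mean counts under 50 were left out. The ratio of KRAB-like members to those without the stretch ranged from 0.420 as counted to 0.470 with the looser KRAB pattern. The settings per kb of exon length and with little shared sequence were chosen after seeing the data. Leaving out single libraries was not run, and no paired analysis was possible because the table used gives 1 mean over all compared libraries. Depth limits the lowest members, whose means rest on few reads.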
